A study of Mus musculus with 9 samples.

Results

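Binding of RelA and RelB was charted around 8 genes of oxidative defence and iron handling, *Sod2*, *Fth1*, *Hmox1*, *Nqo1*, *Gclc*, *Slc39a14*, *Lcn2* and *Sqstm1*. A peak was taken when its centre lay within 50 kb of the annotated start site of one of these genes, which gave 38 of the 25055 peaks in 8 ChIP-seq lists. The genes were picked with earlier results of these data in view. Sites were selected on the presence of a called peak, that is on FDR, fold over input and reads, so having a peak is given as a description only. All libraries came from immortalised Nfkb2-/- mouse embryonic fibroblasts (MEFs), which lack the p100 precursor of NF-κB, both before (0 h) and 6 h into treatment with 10 ng/ml TNF. Chromatin was pulled down with an antibody against RelA (p65) or against RelB, with 2 libraries per antibody and time point, and wild-type cells were not analysed here. One input library, combined from both replicates, served as the control of every list. Peak lists hold neither transcripts nor the edited allele, so they could check neither the fibroblast label nor the deletion.

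NF-κB dimers sit inactive in the cytoplasm until TNF triggers the loss of their IκB inhibitors, and p100 retains RelB in particular. Among the genes that NF-κB is known to control are some that limit reactive oxygen species, which otherwise prolong stress kinase signalling and cell death under TNF. SOD2 converts superoxide in mitochondria to hydrogen peroxide, ferritin heavy chain (*Fth1*) stores iron in a form that cannot generate radicals, and lipocalin 2 (*Lcn2*) binds iron-carrying siderophores. HMOX1, NQO1 and GCLC, which break down haem, reduce quinones and make glutathione, are classical targets of the NRF2 regulator. p62 (*Sqstm1*) binds KEAP1, the inhibitor of NRF2, and *Slc39a14* encodes a metal importer.

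The sequences below are matches to the κB consensus, a pair of guanines, a purine, 3 free bases, a pair of pyrimidines and a pair of cytosines, at the sites on which the results turn. Each was read from the mm9 genome in the direction of the match, with the match in capitals and 10 flanking bases on each side.
Sod2 second intron, chr17:13203174-13203183, minus strand: tttcccaactGGGCTATTCCcctgcttcac
Sod2 start site, chr17:13200622-13200631, plus strand: cggggcggacGGGGTTCCCCgaggcggggc
Fth1 upstream, chr19:10021700-10021709, plus strand: taacctcccaGGGAATTTCCcagcaactca
Nqo1 intron, chr8:109920387-109920396, plus strand: agcaagcccaGGGACTTTCCtggcgctgtt
Sqstm1 far upstream, chr11:50065729-50065738, plus strand: aagctcatcaGGGGAATTCCagcaaccttt
Sqstm1 near upstream, chr11:50026763-50026772, plus strand: ggtcataacaGGGGGATCCCaagctgctgc
The *Sod2* start site and the near upstream *Sqstm1* sequence come from sites called in a single library. The latter sequence lies outside the neighbouring *Sqstm1* site called in 3 libraries, which held no match.

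At 6 h, 6 of the 8 genes had at least 1 peak within 50 kb, beside 43.5% of all 22380 protein-coding genes. None had a peak in any of the 4 libraries at 0 h, when 1.16% of protein-coding genes had one. The lists at 0 h were short, with 14 to 194 peaks and 317 to 4677 reads in peaks, against 5192 to 7052 peaks and 120352 to 162105 reads in peaks at 6 h. The lists do not give the total of sequenced reads, so depth is unknown and a missing peak means only that no window passed the thresholds. The 4 libraries at 6 h contributed 11 and 9 peaks for RelA and 10 and 8 for RelB.
Peaks that overlapped by at least 1 bp were joined, which gave 21 sites. Of these, 4 were called in all 4 libraries at 6 h, 2 in 3 libraries, 1 in 2 libraries and 14 in a single library. Single-library sites were thus 66.7% of the sites near these genes and 67.9% of all 14779 sites at 6 h. Their log2 folds ran from 1.67 to 4.0 with a median of 2.85, beside a median of 2.38 over all single-library peaks. *Sod2*, *Fth1*, *Lcn2* and *Sqstm1* each had 1 site in all 4 libraries, which 9.82% of protein-coding genes had within 50 kb. Another gene's start site was nearer than that of the listed gene for 11 of the 21 sites.
The map of peak positions shows where these sites lie.

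**Figure D1:**
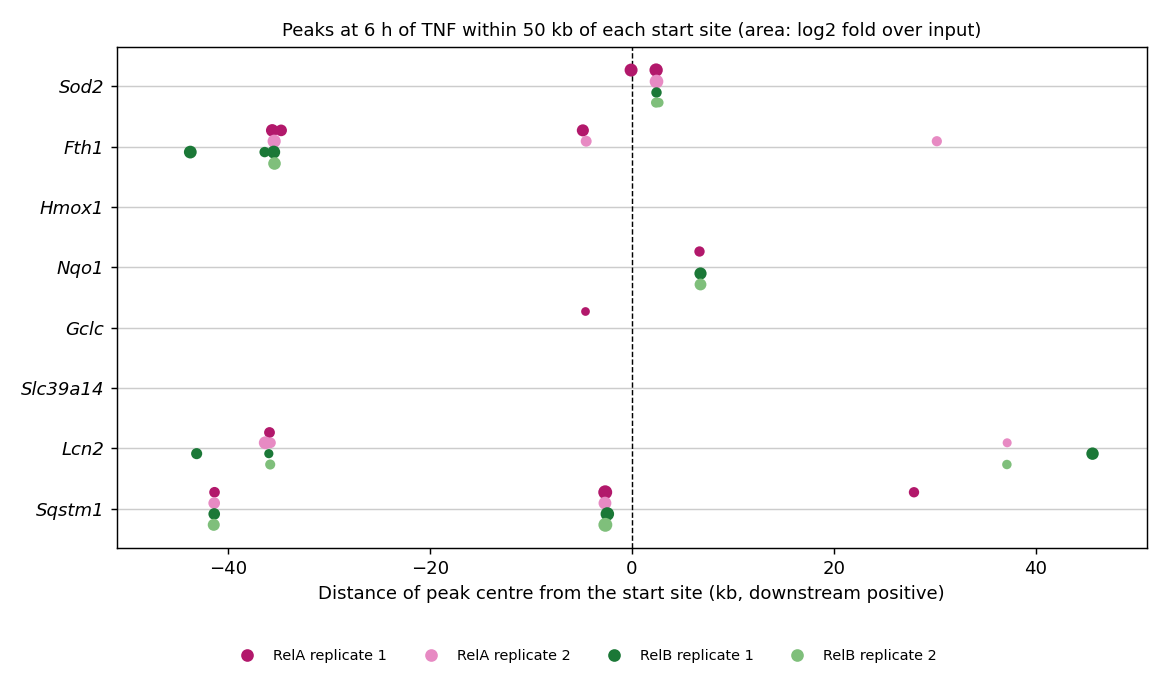
Distance of each of the 38 peak centres from the start site of its gene in kb, with one row of points per library at 6 h and point area in proportion to the log2 fold over input. Peaks of all 4 libraries stack up at *Sod2*, *Fth1*, *Lcn2* and *Sqstm1*, and *Hmox1* and *Slc39a14* have no point.

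*Sod2* (plus strand, mm9 chromosome 17, 13200705 to 13210985) had 6 peaks in 3 sites, all within 2678 bp of its start site. The main site, chr17:13203005-13203226, lay 2410 bp downstream in the second of the introns of the annotated transcript, a part of the gene known from earlier work as a TNF-responsive enhancer. Log2 folds over input there reached 3.90 and 4.08 with RelA, while RelB gave 2.38 and 2.23. Both RelA values lay above both RelB values. The RelA peaks had 78 and 79 ChIP reads against 15 and 13 input reads, at an FDR listed as 0 in both. The RelB peaks had 12 and 11 ChIP reads against 5 and 4 input reads, at FDRs of 0.00771 and 0.0859. The fewest ChIP reads of any peak were 10 in the list of RelB replicate 1 and 11 in that of RelB replicate 2. Both RelB calls thus lay at or near the floor of their lists, and weaker RelB signal would not have been called.
Within their own lists, the RelA folds were at or above 94.4% and 96.1% of all peaks, and the RelB folds at or above 27.3% and 27.5%. The fullest 200-base window held 39 (95% exact Poisson interval 27.7 to 53.3) and 46 (33.7 to 61.4) RelA reads. It held 12 (6.20 to 21.0) and 11 (5.49 to 19.7) RelB reads. These intervals cover counting error only. The fullest input windows had 4 to 6 reads beside all 4 peaks.
The RelA peaks overlapped over 217 bp. The RelB peaks, chr17:13203061-13203090 and chr17:13203093-13203122, were 30 bp each and did not overlap each other, with 2 bases between them, and they belong to one site only through the RelA peaks that cover both. The κB match in this site, shown above, lay inside both RelA peaks and outside both RelB peaks. Reads were counted in 200-base windows, wider than these RelB peaks, so their bounds do not place the RelB reads away from the match.
The other *Sod2* sites were called once each. RelA replicate 1 had a peak over the start site, chr17:13200457-13200811, with 17 ChIP reads, 3 input reads and a log2 fold of 3.70 at an FDR of 0.00124, and this peak covers the match GGGGTTCCCC. RelB replicate 2 had a peak of 29 bp, chr17:13203369-13203397, at the end of the same intron, with 11 ChIP reads and a log2 fold of 1.97 at an FDR of 0.0859. The 3 RelA peaks near *Sod2* thus had folds of 3.70 to 4.08 and the 3 RelB peaks 1.97 to 2.38. Most of these peaks lie at the intron site, which was chosen for its lean to RelA. The others are single-library calls at different places, so they do not compare the antibodies. Beyond these, the nearest peak of any library was 184957 bp from the start site.

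The *Sod2* intron site was singled out for its lean to RelA, so its difference is given without a test. With each library centred on its median over the 1860 sites called in all 4 libraries, RelA exceeded RelB by 1.77 on the log2 scale (SE 0.27). Only 2 of the 1860 sites had a larger difference towards RelA. Leaving out each library in turn gave differences of 1.66 to 1.87. The site was chosen by values of these same libraries, so its rank and this range are descriptions only. If only peaks with an FDR under 0.01 were used, the peak of RelB replicate 2 dropped out and the site was no longer shared. Without peaks of 30 bp or less, both RelB peaks dropped out and no difference could be formed.
Those sites whose 4 centred folds lay closest to the *Sod2* intron were an intron of *4933426M11Rik* on chromosome 12 from 81913031 to 81913298 (Euclidean distance 0.446), a site 8974 bp from the *Daam1* start site (0.541) and a site 170749 bp from the *Tbl1xr1* start site (0.542). At the first of these, RelA had log2 folds of 3.83 and 3.75, and RelB had 2.25 and 1.97. Likeness was measured over these same 4 libraries only, so the lean of the chosen sites to RelA follows from the choice.

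**Figure D2:**
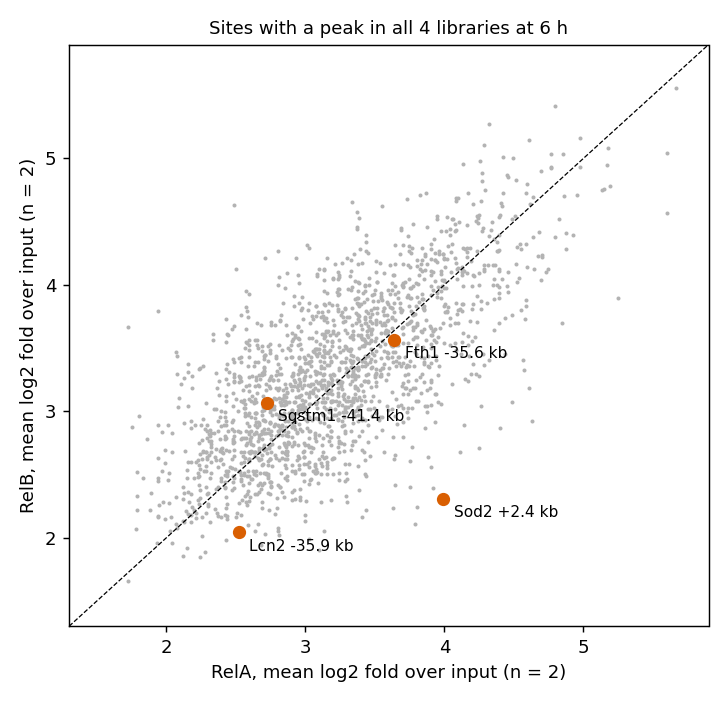
Mean log2 fold over input of the 2 RelA libraries (x axis) and the 2 RelB libraries (y axis) at 1860 sites, with the 4 sites of these genes in orange and a dashed line where both are equal. *Sod2* sits far to the RelA side at 3.99 and 2.31, and *Fth1* close to the line at 3.64 and 3.57.

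The ferritin gene *Fth1* (plus strand, chromosome 19, 10057193 to 10059582) had the most peaks of the set, 10 in 7 sites. Its shared site, chr19:10021199-10021946, lay 35621 bp upstream, outside protein-coding genes, with *Fth1* as the nearest protein-coding start site. RelA peaks had log2 folds of 3.46 and 3.81 and RelB peaks 3.65 and 3.49, with 74, 68, 58 and 50 ChIP reads. Values of the antibodies overlapped, and the centred difference was 0.15 (SE 0.28, 95% interval -0.47 to 0.77, limma, adjusted p = 0.826). The sequence GGGAATTTCC shown above lay inside all 4 peaks. It was 133 bp from the middle of the merged site, which the wide peak of RelA replicate 1 set.
Around this site were 3 single-library peaks, 2 of RelB replicate 1 (43738 and 36372 bp upstream, log2 folds 3.58 and 2.38) and 1 of RelA replicate 1 (34742 bp upstream, 2.99). Nearer the gene, RelA replicate 1 had a peak 4849 bp upstream (log2 fold 3.21, 19 ChIP reads, FDR 0.00657) and RelA replicate 2 had one 4519 bp upstream (2.62, 15 ChIP reads, FDR 0.0499). These RelA peaks lay side by side without overlapping and neither RelB library had a peak there. The last *Fth1* site, 30219 bp downstream, lay in an intron of *Rab3il1* and was called in RelA replicate 2 alone, with a log2 fold of 2.28.

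*Lcn2* (minus strand, chromosome 2, 32240153 to 32243317) had 9 peaks in 5 sites, and no site was centred nearer to its start site than 35911 bp. That nearest site, chr2:32278948-32279508, is in an intron of *Slc25a25* and was called in all 4 libraries. Log2 folds reached 2.56 and 2.48 in RelA, against 1.85 and 2.23 in RelB, with 31, 26, 12 and 20 ChIP reads. RelA was higher in both libraries, but the centred difference of 0.56 (SE 0.27, 95% interval -0.04 to 1.16) was not past the threshold (limma, adjusted p = 0.325). With peaks joined when their centres lay within 500 bp, a neighbouring peak of RelA replicate 2 entered the site and the difference was 1.12 (limma, adjusted p = 0.209). The neighbouring peak, 36317 bp upstream, had 11 ChIP reads, 0 input reads and a log2 fold of 3.58 at an FDR of 0.0882, so its fold rests on the ChIP reads alone. Input reads in the window that set the fold are not given here for other peaks, so other high folds may also rest on few or no input reads. No κB match was found in the shared site.
A site 37171 bp downstream, chr2:32206097-32206196, in an intron of *Dnm1* and 1701 bp from the *Ciz1* start site, was called in RelA replicate 2 (log2 fold 1.78) and RelB replicate 2 (1.96). The remaining *Lcn2* sites were peaks of RelB replicate 1, in a *Slc25a25* UTR 43109 bp upstream (2.70) and in a *Dnm1* intron 45644 bp downstream (3.39). Another start site was nearer than that of *Lcn2* for all 5.

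*Sqstm1* (minus strand, chromosome 11, 50012868 to 50024329) had 9 peaks in 4 sites. Just upstream, in an intron of *Mgat4b*, the site chr11:50026798-50027110 was called in both RelA libraries (log2 folds 4.25 and 3.61) and RelB replicate 2 (4.25), with 61, 59 and 71 ChIP reads. The peak of RelB replicate 1 was only 29 bp wide, chr11:50026738-50026766, and ended 31 bases short of this site, with a log2 fold of 4.0 and 61 ChIP reads. Joined by centres within 500 bp, the peaks made a site called in all 4 libraries, with a centred difference of -0.11 (SE 0.30, 95% interval -0.78 to 0.56, limma, adjusted p = 0.879). The match GGGGGATCCC shown above ran past the end of the RelB replicate 1 peak, so no peak covered it wholly. It lay outside the 3-library site, in which no κB match was found. The start site of *Mgat4b*, 2562 bp from the middle of the 3-library site, was nearer than that of *Sqstm1*, 2625 bp away.
The shared site, chr11:50065511-50065874, lay 41363 bp upstream, and the start site of *Ltc4s* was the nearest of a protein-coding gene. Folds on the log2 scale came to 2.48 and 2.98 with RelA and to 2.97 and 3.17 with RelB, with 36, 35, 39 and 43 ChIP reads. Ranges of the antibodies overlapped (difference -0.26, SE 0.29, 95% interval -0.90 to 0.38, limma, adjusted p = 0.684). It holds GGGGAATTCC and a second match, GGGACATTCC, both inside the peaks of 3 libraries and not wholly inside that of RelB replicate 1. A last peak, 27956 bp downstream in an intron of *3010026O09Rik*, was called in RelA replicate 1 alone, with a log2 fold of 2.36.

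Among the NRF2 targets, *Nqo1* (minus strand, chromosome 8, 109912125 to 109927106) had 1 site, chr8:109920103-109920635, in an intron 6737 bp downstream of the start site. It was called in both RelB libraries, with log2 folds of 3.27 and 3.06 and with 28 and 36 ChIP reads, and in RelA replicate 1, with a log2 fold of 2.36 and 19 reads. RelA replicate 2 had no peak there. The fold of RelA replicate 1 lay below both RelB folds, and with 1 RelA value the difference was not tested. The RelB peaks spanned 467 and 533 bp and covered the match GGGACTTTCC, whereas the RelA peak spanned 71 bp and did not.
*Gclc* (plus strand, chromosome 9, 77602342 to 77642292) had a single peak, 4682 bp upstream, in RelA replicate 1, with 12 ChIP reads, 6 input reads and a log2 fold of 1.67 at an FDR of 0.0643. That fold was at or above only 3.13% of the peaks in the same list. *Hmox1* (plus strand, chromosome 8, 77617490 to 77624495) had no peak in any library, and the nearest lay 221487 bp from its start site. *Slc39a14* (minus strand, chromosome 14, 70703274 to 70751232) had none either, although a site just outside the 50 kb limit, 59900 bp upstream, had a peak of RelA replicate 2 with a log2 fold of 2.12 and 14 ChIP reads. The *Lcn2* site 45644 bp downstream (log2 fold 3.39, 21 ChIP reads) was the outermost inside the limit.

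**Figure D3:**
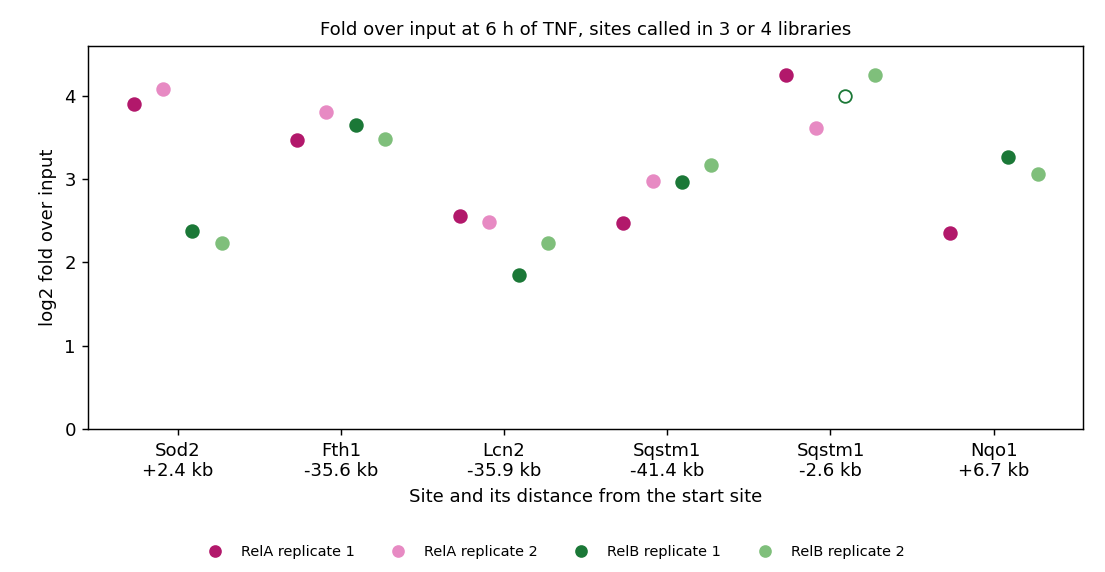
Log2 fold over input at 6 h in each library (points) at the 6 sites called in 3 or 4 libraries. The open point is the RelB replicate 1 peak that ends 31 bases from the *Sqstm1* near upstream site. Both RelA points stand above both RelB points at *Sod2* and, by less, at *Lcn2*, and the RelA point lies below RelB at *Nqo1*.

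The sites were ordered by mean log2 fold within each antibody (± SD, n = 2 unless given). For RelA the *Sod2* intron (3.99 ± 0.12) came first, followed by the near upstream site of *Sqstm1* (3.93 ± 0.45), the *Fth1* site (3.64 ± 0.24), the far upstream site of *Sqstm1* (2.73 ± 0.35), the *Lcn2* site (2.52 ± 0.055) and the *Nqo1* intron (2.36, n = 1). For RelB the near upstream site of *Sqstm1* (4.25, n = 1, without the adjoining peak of replicate 1) came first, followed by the *Fth1* site (3.57 ± 0.12), the *Nqo1* intron (3.17 ± 0.15), the far upstream site of *Sqstm1* (3.07 ± 0.14), the *Sod2* intron (2.31 ± 0.11) and the *Lcn2* site (2.04 ± 0.27). Among RelA neighbours, *Sod2* and near *Sqstm1*, near *Sqstm1* and *Fth1*, and far *Sqstm1* and *Lcn2* differed by less than the larger of their SDs, as did *Nqo1* and far *Sqstm1* and also *Sod2* and *Lcn2* for RelB. For the 3 shared sites other than *Sod2*, limma called 0 at an adjusted p under 0.05, and 0 had an unadjusted p under 0.05. Over all 1860 shared sites, 11 were called, or 0.591%, of which 8 were higher for RelA (0.43% of the sites) and 3 for RelB (0.161%). An unadjusted p under 0.05 was found at 313 of the 1860, so 0 among 3 sites is little information. Nothing in the labels says that the libraries of a group came from separate cultures. The p-values therefore set a difference against spread between libraries only, which may be technical. That spread was estimated by limma partly from the site itself and partly from all 1860 sites.
Reads in the fullest window can be set beside the folds, though they are not scaled for depth. The *Fth1* site had 39 and 29 RelA reads and 27 and 35 RelB reads, and the *Sqstm1* far upstream site had 16 and 20 RelA reads and 21 and 24 RelB reads. Both RelB counts exceeded both RelA counts at the *Sqstm1* site, and the counts of the antibodies overlapped at the *Fth1* site.

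**Figure D4:**
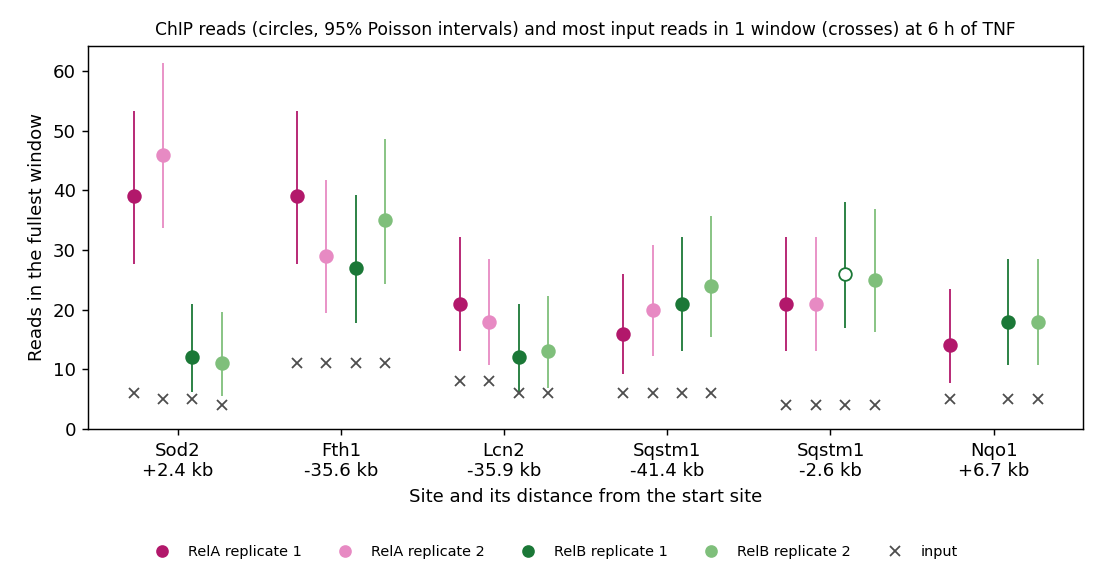
ChIP reads in the fullest window of each peak at 6 h (circles, with 95% exact Poisson intervals for counting error) and the most input reads in 1 window (crosses), per library at the same 6 sites. At *Sod2*, a site chosen for its lean to RelA, the windows hold 39 and 46 RelA reads and 12 and 11 RelB reads, and at *Fth1* 39 and 29 RelA reads and 27 and 35 RelB reads.

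Within 100 bp of the site centre, 10 of the 21 sites held a κB match on either strand (47.6%, Wilson 95% interval 28.3 to 67.6%). The share was 44.3% over all sites at 6 h and 73.9% over all 1860 shared sites. Of the 4 shared sites here, 2 held a match, and of the 14 single-library sites, 6 did, against 33.7% of all single-library sites. Searching the whole merged site as well as the 100 bp on each side of its centre was a choice made after seeing the data. It added the *Fth1* shared site and gave 11 of 21. Of these 11, the single-library site near upstream of *Sqstm1* had no match wholly inside it. The share over all sites was not computed for this search, so whether the gain is particular to these genes cannot be told. The antioxidant response element bound by NRF2, searched as TGACNNNGC on both strands, was found at 2 of 21 sites (9.52%, against 7.92% of all sites at 6 h), the site 37171 bp downstream of *Lcn2* and the site 27956 bp downstream of *Sqstm1*. AP-1 matches, TGANTCA, were found at 3 of 21 (14.3%, against 13.5%), 1 near *Fth1* and 2 near *Sqstm1*, and at the *Sqstm1* downstream site the AP-1 match lies within the antioxidant match. In the window from 250 bp before to 50 bp after the start site, *Sod2*, *Lcn2* and *Sqstm1* held a κB match, as did 27.8% of protein-coding genes. Of these 3 windows, a peak was called over the start site of *Sod2* alone.

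A wider list of 40 genes for oxidative defence and metal handling was read in the same way. At 6 h, 22 of the 40 had a peak within 50 kb (55.0%, against 43.5% of protein-coding genes), and 7 had a site in all 4 libraries (17.5%, against 9.82%), while none had a peak at 0 h. Shared sites were found for 1 of 15 antioxidant enzymes and their partners, 4 of 14 genes of iron and metal handling, 1 of 5 regulators and 0 of 5 genes that produce oxidants or curb thioredoxin. The neighbouring metal genes *Mt1* and *Mt2* were both counted through the same site. The last of the 7 was *Gadd45b*, a brake on stress kinases, with 4 shared sites. The strongest of them, in an intron of *Gng7* 31356 bp downstream, had RelA folds of 3.30 and 3.73 on the log2 scale, below both RelB folds of 3.91 and 4.14, but the centred difference of -0.43 was not past the threshold (SE 0.28, limma, adjusted p = 0.481).
Of the enzymes, *Sod3*, the extracellular superoxide dismutase, had a shared site 16970 bp upstream where RelA had log2 folds of 3.70 in both libraries and RelB had 3.49 and 3.58. The metallothioneins *Mt1* and *Mt2*, which bind zinc and copper, shared 1 site, 790 bp upstream of *Mt2*, where RelA reached 3.90 and 3.26 and RelB 3.66 and 3.78. *Steap4*, a metalloreductase, had a site 152 bp upstream of its start site, where RelA reached 3.10 and 3.27 and RelB 2.60 and 2.98. An intron of the iron transporter *Slc11a2* had RelA folds of 3.41 and 3.39 and RelB folds of 2.97 and 3.45. *Bach1*, a repressor of NRF2 targets, had a site 28374 bp upstream, where RelA had 2.09 and 2.75 and RelB had 2.80 and 2.82. For the strongest shared site of each of the 7 genes, limma gave adjusted p-values between 0.416 and 0.958. *Cat*, *Gclm*, *Slc7a11* and *Tfrc* were among the 18 genes with no peak.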

How the data were processed

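Per the methods, the authors used cutadapt for trimming and Bowtie for alignment to mm9 (uniquely mapped reads only), and called peaks library by library with cisGenome (200-base windows, at least 4 reads, FDR under 0.1, fold above 2) against Nfkb2-/- input. The deposited FDR of a call is a q-value. The deposited log2 fold is that of the strongest window over scaled input, and the deposited count columns hold raw ChIP and input reads per peak and in its fullest window. A fold is therefore not the ratio of the printed counts, and the order of high folds may depend on windows with few or no input reads. Where a library had several peaks in a site, the strongest was used. Whether replicates were separate cultures was not given in the sources used here.

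Start sites and introns came from GENCODE M1, on the same build (NCBIM37), with one start site per gene. Members and gene lists were chosen with earlier results of these data known. Named were the 8 genes, those of the 40-gene list with a site in all 4 libraries at 6 h, the 3 sites closest to the *Sod2* intron, and, chosen after seeing values, 4 genes without a peak. RelA and RelB were compared with limma (lmFit and eBayes, Benjamini-Hochberg over all 1860 shared sites). Merging, motif search and limma were tested on simulated data. Shares have Wilson and reads exact Poisson 95% intervals. Software was R 4.3.3 with limma 3.58.1 and Python 3.11.15 with pysam 0.24.0, scipy 1.17.1, pandas 2.3.3 and numpy 2.4.6.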

Additional observations from a re-analysis of the deposited data

How the results depend on the processing

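The number of genes with a site in all 4 libraries, and the number of such sites, fell from 4 to 2 each with peaks at an FDR under 0.01 (*Fth1* and *Sqstm1*), to 2 without peaks of 30 bp or less (again *Fth1* and *Sqstm1*), and to 1 within 10 kb (*Sod2*). Sites called in any library fell from 21 to 12 at an FDR under 0.01 and to 9 within 10 kb. A log2 fold of at least 2, a limit of 100 kb, any transcript start, centres within 500 bp and leaving out 1 library moved these counts by no more than 1.5 times. Within 250 bp of the centre, 71.4% of these sites held a κB match (61.4% of all sites at 6 h), and within 50 bp, 28.6% (27.7% of all).

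Across all shared sites, limma called 11 (8 higher for RelA), 8 without centring (5 higher for RelA), 30 at an FDR under 0.01 (16 higher for RelA) and 0 with centres within 500 bp, where 327 had an unadjusted p under 0.05. Leaving out a library gave 0 to 40 calls: 40 without RelA replicate 1, 39 without RelA replicate 2 and 0 without either RelB replicate, the lone library being assumed to vary like the others. The cause was not tested. With the replicate number as a block there were 85 calls, 41 higher for RelA, and the deviations of same-numbered libraries were uncorrelated (r = -0.00256), which gave no hint that the numbers pair the libraries. Differences at *Fth1* (-0.042 to 0.34) and far upstream of *Sqstm1* (-0.53 to 0.011) changed sign when 1 RelA library was left out (*Fth1* without replicate 2, *Sqstm1* without replicate 1). No alternative called *Fth1*, *Lcn2* or *Sqstm1*. Depth is unknown, so sites called once cannot be told from sites just under the threshold elsewhere.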
